A study of Equus caballus with 11 samples.

Results

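The distal ends of horse chromosomes 1 to 31 were described from CpG methylation in lung, heart and liver. The end of each chromosome was taken as the largest position listed in any of the 11 libraries. Members were CpGs, both strands combined, within 5 Mb of that end and covered by at least 10 reads in all 11 libraries. In total, 7992 CpGs met this rule, which is 11.7% of the 68147 CpGs covered to that depth in every library. They were compared with the 51499 such CpGs in the interior of the same chromosomes, from which the first and the last 5 Mb were left out. The ends hold what the files list and not the assembled telomeres, so the name subtelomeric rests on position alone.

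Reduced representation bisulfite sequencing (RRBS) reads CpGs in a fraction of the genome rich in CpGs, and bisulfite makes unmethylated cytosines read as T. The samples were lung (n = 4), heart (n = 4) and liver (n = 3) from the same 4 healthy cold-blooded stallions, aged 1 to 2 years. No treatment is stated in the sources used here. The liver of horse 3 was not analysed here, and the study removed 1 liver sample for low data quality. According to the study's methods, lung came from the caudal lobe of the right lung, heart from the left ventricle and liver from the right lobe. These are whole tissues, and a shift in the mix of cell types cannot be told apart from a change within a cell type. The libraries held between 3255257 reads (liver of horse 2) and 25109840 reads (liver of horse 1) summed over listed CpGs, and the median depth of the members was 14 to 49 reads per library.

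Subtelomeres are the stretches of DNA next to the telomere repeats. In mammals they are commonly rich in genes and GC, recombine often and hold segmental duplications. In most vertebrate tissues, isolated CpGs are methylated and dense CpG islands, often at promoters, are not. Horse chromosomes 1 to 13 have 2 arms, so both of their ends are subtelomeres, whereas chromosomes 14 to 31 are acrocentric and have the centromere near the start.

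The first question was whether CpGs near the ends differed in number and level from those in the interior. Listed CpGs were denser at the ends, with 3024 per Mb against 1133 per Mb in the interior, a ratio of 2.67. The ends were denser for 28 of the 31 chromosomes and at least 2 times as dense for 19. The ratio was highest for chromosome 9 at 7.79 and lowest for chromosome 31 at 0.709. It was 2.33 to 2.67 within single libraries, and 1.97 when only CpGs with 10 reads in all 11 libraries were counted, a count chosen after seeing the data. Of the CpGs listed in any library, 1.71% at the ends and 2.31% in the interior were covered in every library, and the mean depth of listed CpGs was lower at the ends, at 10.4 against 11.2 reads. No genome of the files' build was used here, so a denser list cannot be told apart from a denser set of fragments that RRBS can read.

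CpGs at the ends were more methylated than those of the interior in every library. The mean level at the ends was 72.9, 73.2, 72.7 and 72.9% in lung of horses 1 to 4. It was 71.4, 72.4, 72.7 and 72.3% in heart of horses 1 to 4, and 73.9, 72.0 and 73.0% in liver of horses 1, 2 and 4. The interior had 68.4, 68.4, 67.7 and 68.1% for lung, 66.7, 67.8, 67.9 and 67.6% for heart and 68.6, 67.2 and 67.8% for liver, in the same order. No library's interior reached the lowest level seen at the ends. The difference was 4.83 ± 0.23 percentage points (SD, n = 11 libraries), and it was above 0 in 11 of 11 libraries. Over the means of the 4 horses it was 4.84 ± 0.07 points (SD, n = 4), with an exact two-sided sign-flip test in which 2 of 16 arrangements were as extreme (p = 2/16), the smallest p that 4 horses allow, so that this design cannot pass 0.05. Without chromosome 12, which held the most members, the difference was 4.03 points.

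**Figure D1:**
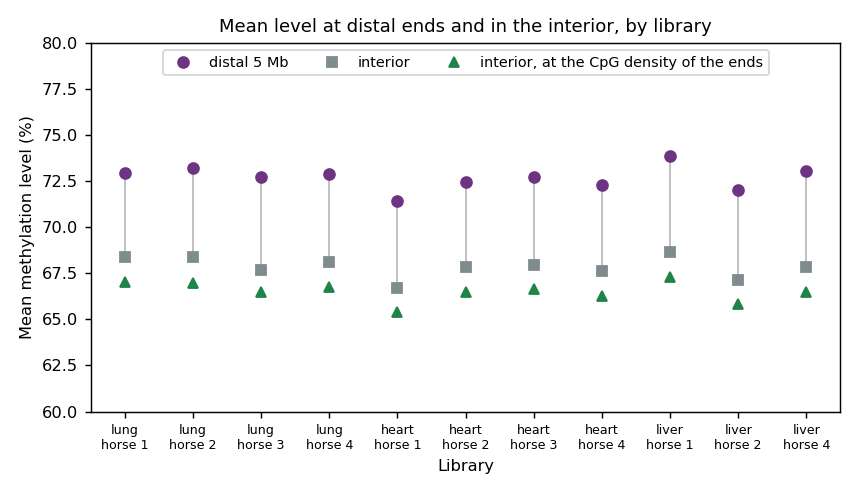
Mean methylation level (%, y axis from 60 to 80) in each of the 11 libraries (x axis) for the distal 5 Mb (circles), the interior (squares) and the interior weighted to the local CpG density of the ends (triangles). In every library the circle lies above both interior values, by 4.57 to 5.25 points for the plain interior.

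The higher mean came with fewer unmethylated CpGs. CpGs at or below 20% made up 8.53 to 10.1% of members per library, against 14.1 to 15.5% in the interior. CpGs at or above 80% made up 55.0 to 59.5% of members, against 50.3 to 54.2% in the interior. In all 11 libraries, 491 members (6.14%) stayed at or below 20% and 2207 members (27.6%) at or above 80%. In the interior these shares were 10.7% and 25.4%.

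The level showed no steady trend with distance from the end. Over the 11 libraries it was 71.7, 71.8, 73.0, 72.7 and 74.1% in successive Mb from the end inwards. It was then 67.4 ± 0.80% (SD, n = 11) in the next Mb, just outside the limit, against 74.1 ± 0.71% just inside it. Much of that step came from chromosome 12, since without it the level was 70.1 ± 0.77% between 4 and 5 Mb and 66.7 ± 0.83% between 5 and 6 Mb (SD, n = 11), an alternative chosen after seeing the data. Farther in it was 69.6, 69.8, 72.6 and 71.0%, so the stretch from 8 to 9 Mb reached the level of the ends. The density of listed CpGs, by contrast, was 3519 per Mb in the last Mb and 3820 per Mb in the one before it, and then fell in each further Mb, to 1189 per Mb between 9 and 10 Mb.

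**Figure D2:**
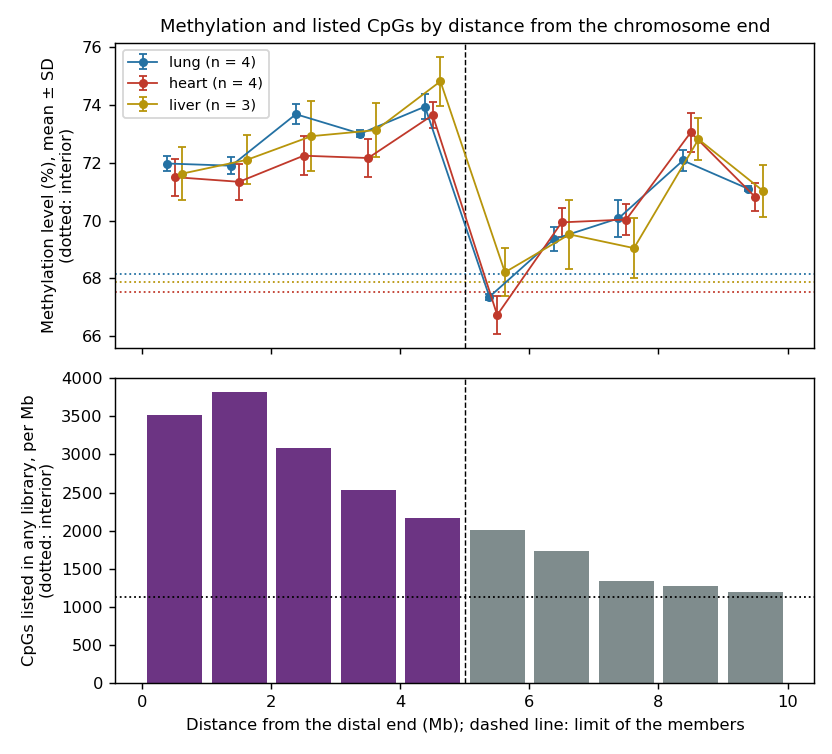
Upper panel, methylation level (%, mean ± SD over the libraries of each tissue) by distance from the distal end in bins of 1 Mb, with the interior as dotted lines. Lower panel, CpGs listed in any library per Mb, with the interior at 1133 as a dotted line. The level drops from the fifth to the sixth bin in all tissues, a step that is smaller without chromosome 12 (70.1 and 66.7%), whereas the listed CpGs decline over the whole range past the second bin.

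Local CpG density is tied to methylation, so each CpG was also placed by the number of listed CpGs within 100 bp, itself included. The median was 4 at the ends and 3 in the interior. The densest surroundings were rarer at the ends, with 11 or more CpGs for 8.27% of members and 11.2% of interior CpGs. Members had a higher level than the interior in the 5 classes of up to 15 CpGs, in 11 of 11 libraries each. The difference was 1.54 points for CpGs with no listed neighbour and 13.2 points for 7 to 10 CpGs, where members had 69.3 ± 0.83% and the interior 56.0 ± 0.56% (SD, n = 11). In the class of 16 and over the order was the other way round, with 42.6 ± 0.84% at the ends (175 CpGs) and 51.4 ± 2.23% in the interior (2111 CpGs), lower at the ends in 11 of 11 libraries. In this class, 50.9% of members and 29.8% of interior CpGs had a mean level at or below 20%. When interior levels were weighted to the members' density classes, the ends were higher by 6.16 ± 0.23 points (SD, n = 11), with the same exact p of 2/16. Without chromosome 12 this value was 4.58 points. The densest classes rested on that chromosome most. Without it the difference was 10.8 points for 7 to 10 CpGs, -2.82 points for 11 to 15 CpGs (321 members) and -28.6 points for 16 and over (77 members), so the ends were then the lower ones in both of these classes.

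**Figure D3:**
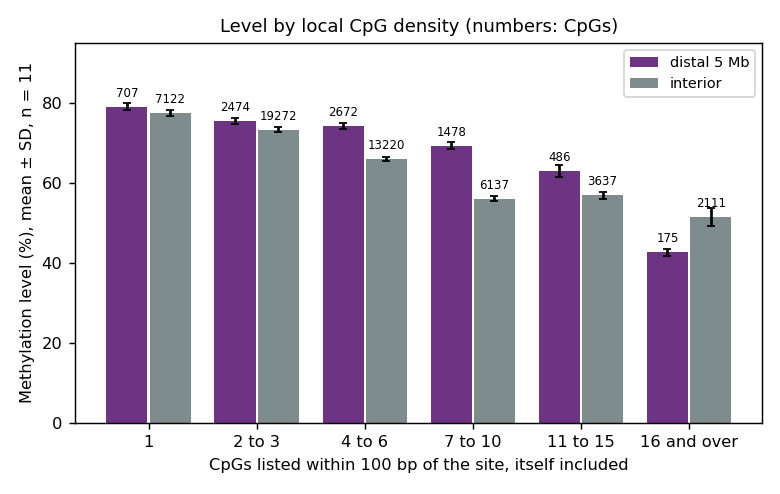
Methylation level (%, mean ± SD over 11 libraries) by the number of CpGs listed within 100 bp, for the distal 5 Mb (left bars) and the interior (right bars), with the number of CpGs above each bar. The ends are higher in all classes but the last, where they have 42.6% and the interior 51.4%. Without chromosome 12 they are also lower in the class of 11 to 15 (-2.82 points).

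Chromosomes differed in how far their end departed from their own interior. The end was higher for 24 of 31 chromosomes, in all 11 libraries for 19 of them. It was lower in all 11 libraries for 4 chromosomes, which were 13, 21, 25 and 30, and of mixed sign over libraries for 8. The median difference over chromosomes was 3.90 points. Chromosomes 1 to 13 had a higher end in 10 of 13 cases and chromosomes 14 to 31 in 14 of 18. Set against the interior of all chromosomes at equal density, 31 of 31 ends were higher, by 0.284 points (chromosome 30) to 16.3 points (chromosome 12).

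The highest levels were at the ends of chromosome 8 with 78.8%, chromosome 12 with 77.7% and chromosome 28 with 77.7%. The lowest were at the ends of chromosome 11 with 64.4%, chromosome 13 with 65.9% and chromosome 25 with 66.5%. The largest differences from the own interior were 13.9 points for chromosome 10 (77.3% at the end and 63.4% in the interior), 11.7 points for chromosome 28 (77.7% and 65.9%) and 10.95 points for chromosome 12 (77.7% and 66.8%). The lowest differences were -4.56 points for chromosome 13 (65.9% and 70.4%), -3.80 points for chromosome 25 (66.5% and 70.3%) and -3.38 points for chromosome 21 (69.5% and 72.9%). At these last ends the library ranges of end and interior did not overlap for chromosomes 25 and 21 but did for chromosome 13, where the lowest interior library had 65.5%.

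**Figure D4:**
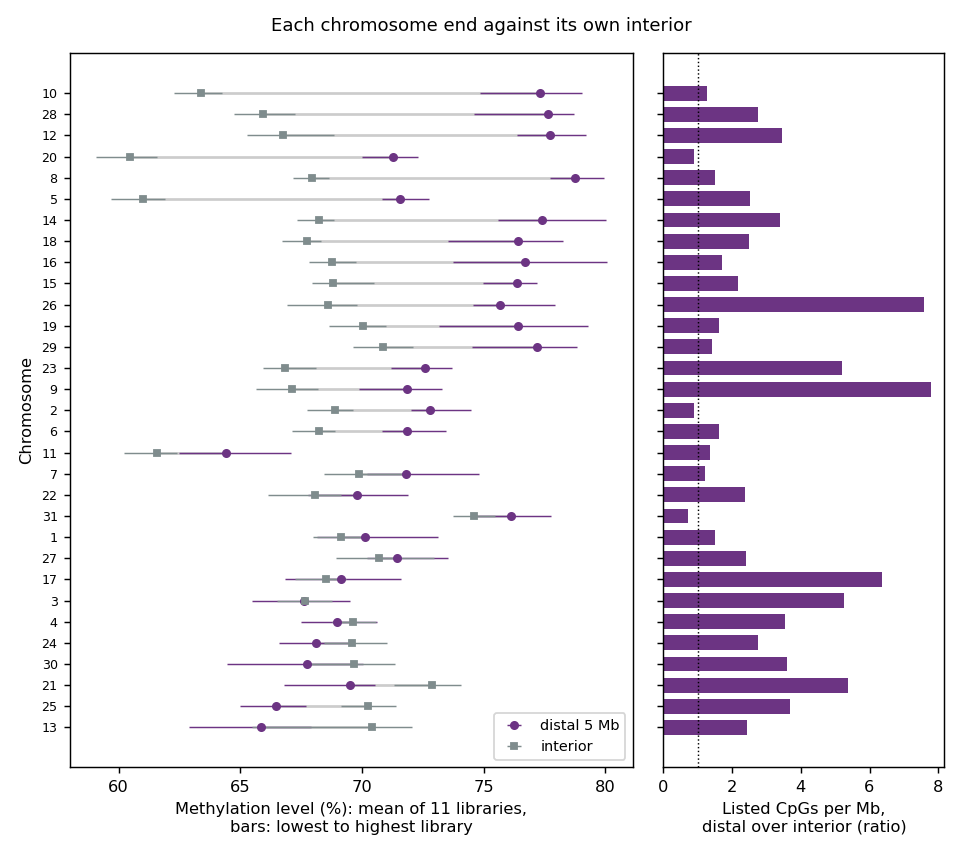
Left, methylation level (%, mean of 11 libraries, bars from the lowest to the highest library) at the distal 5 Mb and in the interior of each chromosome, ordered by the difference. Right, listed CpGs per Mb at the end divided by those of the interior. Chromosome 10 leads with 13.9 points and chromosome 13 comes last with -4.56 points, and 3 ratios lie below 1.

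Members were spread unevenly, from 103 on chromosome 19 to 1076 on chromosome 12. The median was 10 members per 250 kb bin, but chr12:32750001-33000000 held 403 and chr12:33000001-33250000 held 222 (EquCab3.0). These bins had 82.9 ± 1.58% and 68.2 ± 0.75% (SD, n = 11), and their median depths were 69 and 58 reads. Of the 39 members with over 10 times the median depth in a library, 29 were on chromosome 12. The part of mapping in this depth was not tested.

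The opposite ends of the chromosomes give a comparison by arm type. The first 5 Mb of chromosomes 1 to 13, which are subtelomeres too, had 73.2 ± 0.63% and 3747 listed CpGs per Mb, and the last 5 Mb had 72.6 ± 0.71% and 3286 per Mb (SD, n = 11). Without chromosome 12 the first 5 Mb had 72.8 ± 0.65% and 3894 per Mb and the last 5 Mb had 70.7 ± 0.73% and 2935 per Mb. On chromosomes 14 to 31 the last 5 Mb had 72.8 ± 0.76% and 2834 per Mb. The first 5 Mb there, on the side of the centromere, had 69.7 ± 0.77% and 1976 per Mb. The median number of CpGs within 100 bp was 6 in this span, against 4 in the last 5 Mb of the same chromosomes. None of these levels was weighted for local density.

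Levels at the ends also varied a little more between libraries than those of the interior. The median SD between horses per CpG at the ends was 5.87 points for lung, 5.44 for heart and 5.58 for liver, against 5.58, 5.12 and 5.25 points in the interior. These SDs include counting error, which was not taken out. The median depth at the ends was at or below that of the interior in every library, such as 33 against 36 reads in the lung of horse 1. Across CpGs, levels of 2 libraries of 1 tissue had a mean Pearson correlation of 0.907 at the ends and 0.933 in the interior (15 pairs). For libraries of different tissues it was 0.839 and 0.882 (40 pairs). These correlations are across CpGs, which are not independent, and the ends hold fewer CpGs near 0%.

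The next question was how the tissues differed at the ends. Lung averaged 72.9 ± 0.19% and heart 72.2 ± 0.57% (SD, n = 4 each). Their libraries did not overlap at the ends, but only narrowly, with 72.74% in the lowest lung and 72.71% in the highest heart. In the interior they overlapped, though not without the lung of horse 3. Liver averaged 73.0 ± 0.94% (SD, n = 3) and overlapped both. The differences in the mean were 0.72 points for lung minus heart, -0.03 points for lung minus liver and -0.76 points for heart minus liver. Leaving out a library gave 0.46 (without the heart of horse 1) to 0.89 points, -0.52 (without the liver of horse 2) to 0.42 points (without the liver of horse 1) and -1.24 (without the liver of horse 2) to -0.30 points (without the liver of horse 1). Without the heart of horse 1, heart minus liver was -0.49 points. In the interior the differences were 0.62, 0.28 and -0.34 points with all libraries, in the same order. No test was made of these differences.

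Single CpGs were tested by a logistic quasi-likelihood F test over all 68147 CpGs, and a call needed a difference of 25 points or more and an adjusted p under 0.01. Differences of single CpGs, clusters and tiles were taken between reads pooled over the libraries of each tissue, so they weight libraries by depth, whereas the levels given are plain means over CpGs and libraries. The levels printed therefore do not subtract to the differences. Between lung and heart, 233 members (2.92%) were called, beside 2.9% of all CpGs. Of these, 141 were higher in lung (1.76% of members, beside 1.64% of all) and 92 lower (1.15%, beside 1.26%). Between lung and liver, 321 members (4.02%) were called, beside 3.91% of all. Of these, 191 were higher in lung (2.39%, beside 2.3%) and 130 lower (1.63%, beside 1.61%). Between heart and liver, 511 members (6.39%) were called, beside 5.91% of all. Of these, 239 were higher in heart (2.99%, beside 3.0%) and 272 lower (3.40%, beside 2.91%). All 3 shares were near the background. Library ranges were fully separate at 999 members (12.5%, beside 12.6% of all) for lung and heart, at 1349 (16.9%, beside 16.4%) for lung and liver and at 1680 (21.0%, beside 19.9%) for heart and liver. The median absolute difference over members was 4.41 points for lung minus heart, 4.65 for lung minus liver and 5.08 for heart minus liver, against 4.13, 4.23 and 4.65 points in the interior. With the horse as a block, the same test called 0 members in each comparison, with 1532, 944 and 1349 members at an unadjusted p below 0.05 (19.2, 11.8 and 16.9%, beside 18.9, 11.8 and 15.7% of the other CpGs). edgeR with the block called 305, 402 and 563 members (3.82, 5.03 and 7.04%, beside 3.85, 4.83 and 6.43% of the others). On simulated data the blocked quasi-likelihood test recovered 8, 0 and 0% of changes of 45 points, and edgeR with the block 99, 91 and 90%. For 30 points these were 1, 0 and 0%, and 67, 46 and 51%. Of unchanged CpGs, edgeR with the block put 6.81, 7.32 and 7.06% at an unadjusted p below 0.05. The simulation held 10000 CpGs and no effect shared by the libraries of a horse, so it cannot decide between the blocked results. Without the lung of horse 2 the first comparison called 155 members (1.94%, beside 1.98% of the others). Without the liver of horse 1 the other comparisons called 191 (2.39%, beside 2.25%) and 284 (3.55%, beside 3.47%), and without the liver of horse 4 lung minus liver called 209 (2.62%, beside 2.58%).

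The calls differed between density classes. Among members with 11 to 15 CpGs within 100 bp, 29 of 486 (5.97%) were called between heart and liver and 19 of 486 (3.91%) between lung and liver, against 1.73% and 0.770% of such CpGs in the interior. Between lung and heart the shares were 0.412% at the ends and 0.577% in the interior. The largest excess in that comparison was at 4 to 6 CpGs, with 3.71% at the ends and 3.10% in the interior. In the comparisons with liver, the class of 11 to 15 CpGs had the largest excess of the 6. In the others the share between heart and liver was 6.51, 6.79, 6.85, 5.75 and 0% at the ends, from the sparsest class to the densest, against 7.33, 6.93, 6.71, 4.46 and 1.33% in the interior. Between lung and liver it was 5.23, 4.16, 3.78, 4.06 and 0.571% at the ends, against 5.39, 4.83, 4.37, 2.87 and 1.47% in the interior. Neighbouring CpGs share reads and 1 cluster can hold several calls, so these shares were not tested.

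Tiles of 1000 bp with at least 3 covered CpGs were tested in the same way, with a call at an adjusted p under 0.05 and 10 points. Of 1150 distal tiles, 143 (12.4%) were called between lung and heart, beside 11.8% of all 8301 tiles, with 83 higher in lung (7.22%, beside 6.48%) and 60 lower (5.22%, beside 5.3%). Between lung and liver 141 (12.3%) were called, beside 10.9% of all, with 61 higher in lung (5.30%, beside 5.2%) and 80 lower (6.96%, beside 5.69%). Between heart and liver 223 (19.4%) were called, beside 16.5% of all, with 90 higher in heart (7.83%, beside 7.12%) and 133 lower (11.6%, beside 9.41%). For lung minus liver most called tiles were thus lower in lung, whereas most called CpGs, at a stricter threshold, were higher. The same held over all features, with 432 tiles higher and 472 lower, and 1567 CpGs higher and 1096 lower. With calls of CpGs from 10 points, 53.2% of called members were higher in lung. Without the liver of horse 1 the comparisons with liver called 86 tiles for lung (7.48%, beside 6.96% of all) and 129 tiles for heart (11.2%, beside 11.01% of all).

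Called members that lie within 200 bp of each other and change in 1 direction formed clusters of at least 3. There were 18 such clusters between lung and heart (11 higher and 7 lower in lung), 29 between lung and liver (16 higher and 13 lower in lung) and 42 between heart and liver (17 higher and 25 lower in heart). They held 0.776, 1.35 and 1.95% of members, beside 0.605, 0.992 and 1.53% of all CpGs. No test was made of these shares. The clusters with the most called CpGs are described here, with positions on EquCab3.0. Gene names come from the study's own annotation of sites, which listed 164 of the members. The copy used here was shortened, so a cluster without a name may still lie in a gene. Roles of the genes are given as known from humans.

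At a pair of clusters, CpGs near 0% in lung and heart were partly methylated in liver. The first, chr11:60519323-60519388, has 7 CpGs upstream of RAI1, which encodes a chromatin-associated regulator of transcription. Lung libraries of horses 1 to 4 had 0, 0, 4.40 and 0%, heart libraries 0, 0.595, 1.79 and 0%, and liver libraries of horses 1, 2 and 4 had 53.6, 59.7 and 66.3%. Liver stood apart from every other library, and all 7 CpGs were called, by -58.1 points for lung minus liver (adjusted p at most 0.00208, quasi-likelihood test) and by -58.6 points for heart minus liver (at most 0.000344). The second, chr12:34445848-34445904, has 7 CpGs in an intron of ENSECAG00000028346. Its libraries had 1.53, 1.90, 1.19 and 4.08% for lung, 0.714, 0.697, 1.33 and 0% for heart and 50.1, 56.8 and 52.5% for liver. All 7 CpGs were called here too, by -49.9 points for lung minus liver (adjusted p at most 0.00131) and by -51.3 points for heart minus liver (at most 0.000108).

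Of the next clusters, 3 were less methylated in liver than in lung and 1 more. At chr30:28920323-28920366, 5 of 6 CpGs were called. Lung had 74.9, 85.3, 95.1 and 96.3%, heart 79.8, 96.2, 94.4 and 97.5%, and liver 34.3, 33.3 and 31.7%, with no overlap of liver with the others. The differences were 55.0 points for lung minus liver (adjusted p at most 0.00014) and 62.8 points for heart minus liver (at most 1.75e-05). At chr18:82026237-82026266, in an intron of PLEKHM3, a gene for a pleckstrin homology domain protein, 4 CpGs had 88.3, 88.3, 88.5 and 77.5% for lung, 59.95, 80.4, 60.1 and 59.7% for heart and 30.9, 22.2 and 15.4% for liver. Lung minus liver was 61.9 points (adjusted p at most 6.73e-05). At chr9:83651327-83651391, 4 CpGs averaged 77.8 ± 2.27% for lung, 46.0 ± 5.01% for heart and 30.9 ± 3.08% for liver (SD), and lung minus liver was 47.6 points (at most 0.000448). At chr7:98873646-98873709 the order was lung 31.5 ± 6.95%, heart 55.8 ± 5.52% and liver 82.5 ± 5.01%, with -54.0 points for lung minus liver over 5 CpGs (at most 6.27e-05).

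Heart stood apart at a cluster in PFKP, which encodes the platelet form of phosphofructokinase, an enzyme of glycolysis. Its 4 CpGs at chr29:31987548-31987571, in an intron, had 91.3, 89.1, 90.2 and 84.4% for lung, 18.6, 26.2, 15.6 and 30.8% for heart and 86.4, 68.8 and 78.6% for liver. Every heart library was below every other library. Lung minus heart was 68.0 points (adjusted p at most 1.81e-05), and the tile that holds the cluster differed by -60.5 points for heart minus liver (adjusted p = 2.23e-05).

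Heart was also apart at a cluster in an intron of AK8, which encodes an adenylate kinase, but in the other direction. The 4 CpGs at chr25:35774685-35774752 had 20.7, 19.6, 34.8 and 15.7% for lung, 72.3, 72.0, 68.2 and 72.8% for heart and 20.6, 22.5 and 16.5% for liver. Lung minus heart was -50.5 points (adjusted p at most 0.000101). With 1 more CpG, up to position 35774881, heart minus liver was 52.6 points (at most 7.02e-05).

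PPFIA1, which encodes liprin-alpha-1, a protein of cell adhesion sites, lies in the dense stretch of chromosome 12 and held 2 of the clusters in its introns. At chr12:32969332-32969418, 5 of 7 CpGs were called, with 65.7, 62.8, 61.5 and 62.8% for lung, 91.2, 92.5, 91.3 and 90.6% for heart and 80.8, 80.5 and 86.7% for liver. Lung was below both other tissues in every library, and lung minus heart was -29.5 points (adjusted p at most 0.000402). At chr12:32939821-32939852, 5 CpGs averaged 64.8 ± 4.08% for lung, 80.1 ± 2.25% for heart and 45.1 ± 5.83% for liver (SD), and heart minus liver was 32.1 points (at most 9.91e-05).

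At the remaining clusters no gene was matched in that copy. At chr6:86791089-86791148, 4 CpGs had 20.4, 18.3, 27.1 and 24.7% for lung, 73.9, 82.5, 81.5 and 78.9% for heart and 39.5, 18.5 and 73.5% for liver, so liver libraries spread over most of the range between the other tissues. Lung minus heart was -56.4 points (adjusted p at most 7.54e-06). At chr13:43103387-43103444, 4 of 5 CpGs were called, with 78.5 ± 8.05% for lung, 44.5 ± 3.61% for heart and 48.7 ± 1.76% for liver, and lung minus heart was 36.3 points (at most 0.00285). At chr18:79016408-79016498, 4 CpGs had 85.2 ± 3.94% for lung, 53.9 ± 7.83% for heart and 70.8 ± 11.4% for liver, and lung minus heart was 32.6 points (at most 0.00506). This cluster kept only 2 called CpGs without the heart of horse 1 or of horse 3. At chr20:63812026-63812055, 5 CpGs had 38.2 ± 12.1% for lung, 18.01 ± 7.74% for heart and 52.5 ± 3.12% for liver (SD), and heart minus liver was -33.4 points (at most 0.00566). It kept 2 called CpGs without the liver of horse 1 and 1 without the liver of horse 4.

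**Figure D5:**
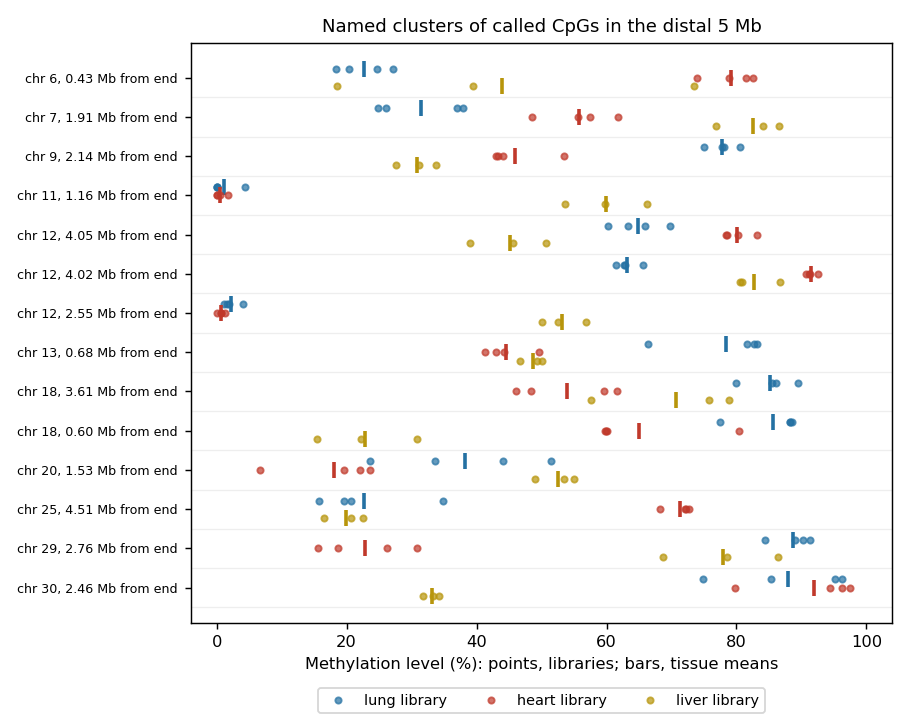
Methylation level (%, x axis) of the named clusters (rows, by chromosome and distance from the distal end), with a point for each library and a bar for each tissue mean. Liver lies far above lung and heart at the clusters of chromosome 11 (59.9%) and of chromosome 12 at 2.55 Mb (53.1%), and heart lies far below the others on chromosome 29 (22.8%).

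Of the tiles with the largest differences, 7 held none of these clusters. Between lung and heart, chr12:32036001-32037000 was higher in lung by 34.8 points (adjusted p = 0.000128) and chr22:45941001-45942000 lower (-32.9 points, adjusted p = 0.000714). The tile chr5:93873001-93874000 was high in lung alone, with 75.7% for lung, 23.9% for heart and 29.4% for liver, and lung minus heart was 50.6 points (adjusted p = 8.29e-05). The tile chr3:117635001-117636000 was low in heart, with 68.1% for lung, 21.3% for heart and 75.4% for liver, and heart minus liver was -53.3 points (adjusted p = 3.48e-05). The tile chr24:46587001-46588000 had 35.8% for lung, 74.9% for heart and 16% for liver, and heart minus liver was 56.4 points (adjusted p = 2.91e-05). The tile chr20:63476001-63477000 was lower in liver, with 89.9% for lung, 94.8% for heart and 45.4% for liver. The tile chr17:78928001-78929000 was lowest in lung, with 8.87% for lung, 40.3% for heart and 49.5% for liver.

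From plain means over CpGs, the called ends differed between tissues by a few points, and ends at the median by 0.72 to 0.92 points. With limma over 468 windows of 5 Mb counted back from each end, 6 of 31 ends were called between lung and heart, beside 16.7% of all windows, and 5 of them were higher in lung. Between lung and liver 2 ends were called, beside 14.7% of all windows, at chromosomes 29 and 30, and both were higher in lung. Between heart and liver 9 ends were called, beside 24.6% of all windows, and 8 of them were lower in heart. Directions were not counted for the other windows, so they are not shown to be particular to the ends. The mean differences of the interior had the same signs, at 0.62, 0.28 and -0.34 points. The median absolute difference was 0.72, 0.88 and 0.92 points at the ends, against 1.25, 1.22 and 1.33 points in other windows. These medians are not like for like, since ends held 103 to 1076 CpGs and other windows could hold as few as 20. Over single CpGs the medians were higher at the ends, with 4.41, 4.65 and 5.08 points against 4.13, 4.23 and 4.65 in the interior. The end of chromosome 30 was lower in liver, at 68.3 ± 0.60% for lung, 69.0 ± 1.17% for heart and 65.2 ± 1.10% for liver (SD). Heart minus liver was 3.81 ± 0.77 points there (SE, adjusted p = 0.0029, limma). The end of chromosome 19 was lower in heart, at 78.3 ± 0.67% for lung, 73.9 ± 0.67% for heart and 77.2 ± 1.80% for liver (SD). Lung minus heart was 4.40 ± 0.75 points (SE, adjusted p = 0.00234) and heart minus liver -3.27 ± 0.81 points (SE, adjusted p = 0.00927). The ends of chromosomes 11, 13 and 17 were lower in heart than in liver by 2.85 to 3.10 points. When levels were computed from summed reads, calls fell over all windows, to 4.49, 6.41 and 10.5% of them. The called ends then numbered 2, 1 and 3. The end of chromosome 27, not called from plain means, was then called for lung minus heart and for heart minus liver. Its differences were 39.3 points (adjusted p = 0.000335, limma) and -42.6 points (adjusted p = 0.000217, limma), against 0.20 and 0.66 points from plain means. The cause of this shift was not tested. For heart minus liver the calls at chromosomes 11, 13, 17 and 19 were lost, with -0.68, -1.21, -2.57 and -2.55 points. Those at chromosomes 3, 12 and 16 were lost too, with -1.70, -0.58 and -3.47 points. For lung minus heart the calls at chromosomes 3, 7, 13, 22 and 26 were lost, with 1.36, -1.98, 1.27, 2.16 and 1.75 points. Only the call at chromosome 19 was kept there (4.08 points, adjusted p = 0.0229, limma). For lung minus liver both calls were lost, with 2.88 points at chromosome 29 (adjusted p = 0.0757) and 2.45 points at chromosome 30 (adjusted p = 0.227), and the end called in their place, of chromosome 1, was lower in lung. Between lung and heart, 2 ends were called without the heart of horse 4, beside 7.05% of all windows. There were 3 without the heart of horse 1 (beside 10.5%) or the lung of horse 1, 2 or 4 (beside 8.76% each). Between lung and liver, 0 were called without the liver of horse 4 (7 ends at an unadjusted p below 0.05), beside 10.5% of all windows. Of all windows, 8.55% were called without the liver of horse 2. The 2 ends called were then other ones, chromosomes 1 and 16, both lower in lung. Chromosomes 29 (1.94 points, adjusted p = 0.143, limma) and 30 (2.74 points, adjusted p = 0.0612, limma) were lost. There was 1 end called without the heart of horse 4 (beside 13.7% of all windows). There was also 1 without the lung of horse 1, 2 or 4 (beside 10.7, 11.3 and 9.83%), and 4 without the heart of horse 3 (beside 16.2%). Between heart and liver, 5 were called without the heart or the liver of horse 4, beside 18.8 and 16.5% of all windows.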

How the data were processed

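Horse lung, heart and liver DNA was analysed by RRBS (Ovation kit, single-end reads). According to the submitters' notes and the study's methods, reads were checked with FastQC, mapped with BSMAP to EquCab3.0, and uniquely mapped reads were used. The authors deposited, for each cytosine with at least 5 reads, a count of reads (coverage) and the percent read as C or T. Methylated reads were recovered as coverage times percent, whole within 0.05 points for 99.8% or more of the positions, and both strands of a CpG were summed. Levels are means over CpGs. Tested differences of sites and tiles weight libraries by depth, and those of 5 Mb windows weight libraries equally. Members and lists were chosen with earlier results of these data known.

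Sites and tiles were tested by a logistic quasi-likelihood F test with dispersions moderated by limma 3.58.1 (R 4.3.3) and kept at 1 or above, with Benjamini-Hochberg adjustment over all sites or tiles, and windows of at least 20 CpGs by limma on mean levels. edgeR 4.0.16 was an alternative. The tests were checked on simulated data. Per comparison and direction, up to 3 clusters with the most called CpGs and up to 4 tiles with the largest difference were eligible to be named, and for ends the 3 highest and lowest in level and in difference, and those called. The horse pairs the samples by the labels, which give the animal: deviations of libraries of 1 horse correlated at 0.051 to 0.251, against at most 0.060 between horses. The members' median depth was 14 to 49 reads, and libraries of 1 tissue differed by more than counting error (chi-square per degree of freedom 1.50 to 2.38), the use of molecular identifiers is not given in the sources used here, and no interval is given for single sites.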

Additional observations from a re-analysis of the deposited data

Results flagged for a closer look

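In groups of 4 libraries (lung and heart), a library was singled out where its gap to the nearest other was large against the range of the group. Chance does so in about 1 of 20 groups. Of 102 groups, 13 had such a library, and 4 of these are tiles that hold a cluster already counted. No cause was tested.

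At the cluster on chromosome 13 the lung of horse 4 had 66.4%, and the other lungs 81.6 to 83.1%. At the cluster in PLEKHM3 on chromosome 18, and the tile that holds it, the heart of horse 2 had 80.4%, against 59.7 to 60.1% in the other hearts, and the lung of horse 4 had 77.5%, against 88.3 to 88.5% in the other lungs. At the AK8 cluster on chromosome 25 the heart of horse 3 had 68.2%, and the other hearts 72.0 to 72.8%. At the cluster and tile on chromosome 9 the heart of horse 4 had 53.4%, and the other hearts 43.0 to 44.1%. At the cluster and tile upstream of RAI1 on chromosome 11 the lung of horse 3 had 4.40%, and the other lungs 0%.

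Among whole ends, chromosome 12 had 76.4% in the heart of horse 1, and 77.5 to 77.7% in the other hearts. Chromosome 25 had 65.0% in the lung of horse 4, and 66.8 to 67.1% in the other lungs. Chromosome 26 had 75.3% in the heart of horse 2, and 74.6% in the other hearts.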

How the results depend on the processing

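The mean level was higher at the ends under every alternative run, including leaving out each library or each chromosome, and the density ratio stayed above 1 under those run for it. The difference in level was 4.39 points with 5 reads, 4.30 with 20 reads, 3.89 within 2 Mb of the end, 4.32 with the first 5 Mb kept, 4.57 weighted by depth, 4.34 as a mean over chromosomes, 4.03 without chromosome 12 (the lowest) and 5.17 without chromosome 13 (the highest). At equal density it was 5.44 with 5 reads, 5.10 within 2 Mb, 4.58 without chromosome 12 (chosen after seeing the data) and 6.54 with neighbours counted within 250 bp. The density ratio was 3.24 within 2 Mb, 2.42 with the first 5 Mb kept, 2.16 for CpGs listed in all 11 libraries and 1.97 for those with 10 reads in all. Without chromosome 12, also chosen after seeing the data, the difference for 11 to 15 CpGs within 100 bp turned to -2.82 points.

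Counts of calls moved with depth. For lung minus heart, lung minus liver and heart minus liver, members called were 628, 796 and 1499 with 5 reads (2.26, 2.86 and 5.38% of 27838 members, beside 2.21, 2.97 and 5.02% of other CpGs), 45, 42 and 55 with 20 reads (3.35, 3.12 and 4.09% of 1345, beside 2.19, 3.06 and 4.14%), 76, 142 and 190 within 2 Mb (2.49, 4.64 and 6.21% of 3058, beside 2.92, 3.87 and 5.90%), and 0 in each with the horse as a replicate block. Leaving out a library gave 155 to 213, 191 to 315 and 284 to 488. A chi-square test with no overdispersion called 492 for lung minus liver (6.16%, beside 5.68% of other CpGs). With the block, 6, 2 and 8 ends were called, beside 17.9, 14.1 and 22.6% of all windows. For lung minus liver chromosome 29 was lost (adjusted p = 0.0825, limma) and chromosome 17 gained, lower in lung. For heart minus liver chromosome 12 was lost. Tiles called with the block were 157, 142 and 213 (13.7, 12.3 and 18.5%, beside 13.1, 11.9 and 16.2% of all tiles). No named cluster (edgeR) or tile lost its call with the block. The share of called members higher in the first tissue turned to 35.6% and 42.9% with 20 reads for the comparisons of lung. For heart minus liver, 46.8% at first, it was 53.2% within 2 Mb and 65.5% with 20 reads, and 44.9 to 60.9% without a library, so its direction is not settled. The median absolute differences were 5.11, 5.37 and 5.88 points with 5 reads and 3.32, 3.57 and 3.91 with 20 reads, and 4.43 to 4.81, 4.75 to 5.43 and 5.21 to 5.68 without a library. Tiles called were 26, 22 and 38 with 5 CpGs per tile and 33, 50 and 78 at 0.01 and 25 points. Without a library they were 113 to 142, 86 to 130 and 129 to 206. Ends called were 2, 1 and 3 from summed reads, beside 4.49, 6.41 and 10.5% of all windows. Without a library they were 2 to 7, 0 to 4 and 5 to 10, beside 7.05 to 23.1, 8.55 to 18.4 and 16.5 to 26.7% of all windows. From summed reads, the end of chromosome 27 was gained for lung minus heart and heart minus liver. Cause was not tested in any of these.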
